A study of Sus scrofa with 7 samples.

Results

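The simple epithelial keratins examined here are KRT7, KRT8, KRT18, KRT19, KRT20 and KRT23, the keratins of single-layered epithelia. They were taken from the gene tables by symbol. Of these 6 genes, 5 had a row among the 29510 rows of the tables, and KRT7 was not analysed here. The set was chosen because KRT8 and KRT19 differ strongly between the cell types, so the levels of its members are described with no test. The tables hold 1 library from each of 3 lines of porcine extra-embryonic endoderm (pXEN) cells, 2 of naïve-like embryonic stem cells (nESCs) and 2 of primed embryonic stem cells (pESCs).

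The pXEN lines came from the inner cell mass of parthenogenetic blastocysts. They were kept on inactivated mouse embryonic fibroblasts in LCDM medium, which holds minocycline hydrochloride, CHIR99021, LIF and (S)-(+)-dimethindene maleate, with Y27632 and fetal bovine serum. Their passages were 26, 26 and 23. The nESC lines also grew on mouse embryonic fibroblasts, in LBX medium with FGF, LIF, PD0325901, CHIR99021, SB431542 and doxycycline, and were at passages 21 and 22. The pESC lines were made from naïve-like ESCs and grew on STO cells, a mouse fibroblast line, in a medium with activin A, bFGF, EGF and LIF. Both were at passage 20. The labels name no knockout and no transgene. The medium differs between all 3 cell types, and the feeder between the pESCs and the other lines, so their effects and that of the cell type cannot be told apart there. The tables do not separate reads of feeder cells from reads of pig cells. In bulk RNA, fewer cells of a type and less RNA per cell cannot be told apart either.

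Keratins are the intermediate filament proteins of epithelial cells. A filament is built from pairs of 1 type II and 1 type I chain. KRT7 and KRT8 are type II, and KRT18, KRT19, KRT20 and KRT23 are type I. KRT8 and KRT18 are the first keratins made by the mammalian embryo and are known from trophectoderm and from extra-embryonic endoderm. Without a partner of the other type, keratin chains are degraded.

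The libraries held 10408164 to 12995720 counted reads, and a floor of 3 counts was taken for detection, which covers counting error only. Of the extra-embryonic endoderm markers, all 13 listed had lower FPKM in every ESC line than in any pXEN line, as had 24.8% of all genes tested. One was GATA4, a transcription factor of endoderm, at 239, 188 and 239 FPKM in pXEN lines and at most 0.0834 FPKM in ESC lines. SOX2, a transcription factor of pluripotent cells, was at 102 and 126 FPKM in nESCs and 147 and 154 FPKM in pESCs. Of the 8 pluripotency markers tested, 4 were higher and 3 lower in pXEN cells than in nESCs, where 28.3% and 26.2% of all genes tested were, and 3 were higher and 5 lower than in pESCs, where 23.9% and 24.4% were. NANOG was between 4.50 and 15.5 FPKM in pXEN lines, above both ESC types, where it was at most 1.43 FPKM, and LIN28A and OTX2 were also highest in pXEN lines. POU5F1, a defining pluripotency factor, had at most 5 counts in any library, the ESC lines included. The pXEN line 2 stood apart. Its 11 fibroblast markers summed to 252 FPKM, against 18.4 and 21.4 FPKM in lines 1 and 3, 36.9 and 45.3 FPKM in nESCs and 75.6 and 105 FPKM in pESCs. Line 2 had 38 counts on 14 rows of chromosome Y, where the other libraries had between 0 and 11. It was the only pXEN line with SOX2 counts, 30 of them. The part of such cells in the results below was not tested.

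KRT8, the type II chain, was among the most abundant transcripts of pXEN cells. It was at 7715, 9098 and 6963 FPKM in pXEN lines 1, 2 and 3, at 1892 and 2239 FPKM in pESCs and at 5.30 and 18.8 FPKM in nESCs. The 3 cell types did not overlap, and the pXEN lines were the highest. Among nuclear protein-coding genes ordered by FPKM, KRT8 ranked 1 or 2 in pXEN lines, between 17 and 20 in pESCs and between 4102 and 8374 in nESCs. It took 1.27 ± 0.138% (SD, n = 3) of the counts of a pXEN library and 0.372 ± 0.0357% (SD, n = 2) of those of a pESC library. The fitted log2 fold change was 9.36 (SE 0.61) for pXEN cells over nESCs, 1.95 (SE 0.42) for pXEN cells over pESCs and 7.41 (SE 0.57) for pESCs over nESCs. The nESC lines set the fold over nESCs, which for pXEN cells was 8.71 without nESC line 1 and 10.54 without nESC line 2, and for pESCs 6.76 and 8.59. In mean FPKM, pXEN cells were 3.84-fold above pESCs, and 3.55-fold without pXEN line 2.

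KRT18, the usual type I partner of KRT8, followed the same order. Its FPKM was 2758, 3349 and 2543 in pXEN lines, 708 and 795 in pESCs, and 0.117 and 0.546 in nESCs. Again no library of a cell type overlapped with another type. The nESC values rest on 2 and 9 counts, so KRT18 was below the floor of 3 counts in nESC line 1 and above it in line 2. The log2 fold change was 13.07 (SE 0.39) over nESCs and 1.95 (SE 0.21) over pESCs for pXEN cells, and 11.12 (SE 0.38) for pESCs over nESCs. Without nESC line 1 the changes over nESCs were 12.33 and 10.39, and without nESC line 2 they were 14.50 and 12.55. The ratio of mean FPKM between pXEN cells and pESCs was 3.84, as for KRT8, and 3.53 without pXEN line 2.

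KRT19, a short type I keratin that lacks most of the tail domain, was not detected in nESCs. It was at 723, 1240 and 592 FPKM in pXEN lines and at 149 and 172 FPKM in pESCs, and both nESC lines had 0 counts. Against the floor of 3 counts per library, its excess over nESCs was at least 4735-fold in pXEN cells and at least 887-fold in pESCs. The log2 fold change of pXEN cells over pESCs was 2.42 (SE 0.33). Line 2 carried more of it than the other pXEN lines, and the ratio of mean FPKM to pESCs was 5.30 with line 2 and 4.09 without it. The highest pXEN line was 2.10-fold above the lowest for KRT19, 1.31-fold for KRT8 and 1.32-fold for KRT18. Over 14993 genes, the median of this ratio was 1.37, and 17.9% of genes were above 2.

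KRT20, a type I keratin of gut and urothelium, and KRT23, another type I keratin, were near the floor and did not pass the filter on low counts. In pXEN lines 1, 2 and 3, KRT20 had 0, 20 and 2 counts, with none in nESCs and 0 and 1 in pESCs. The counts of KRT23 were 2, 18 and 0 in the same order, with none in nESCs and 9 and 10 in pESCs. For both genes, line 2 held nearly all pXEN reads, and the other pXEN lines were at or below the floor. The KRT20 interval covers the gene KRT12, which had 0 counts in all libraries.

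**Figure D1:**
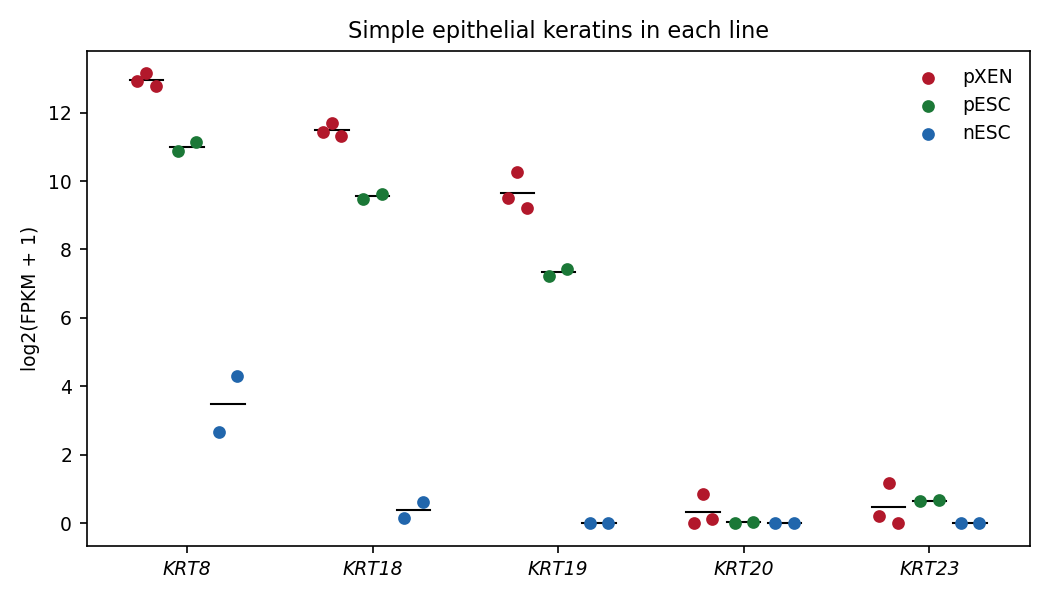
Level of each simple epithelial keratin with a row, as log2(FPKM + 1), in 3 pXEN, 2 pESC and 2 nESC lines; points are lines and bars are group means. KRT8, KRT18 and KRT19 are highest in the pXEN lines, intermediate in pESCs and lowest in nESCs, with no overlap, and KRT20 and KRT23 lie near 0.

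The 3 members that passed the filter are among the genes called in each of the 3 comparisons. They were chosen on these contrasts, so this count is a description and no test of the keratins. For pXEN cells against pESCs it was 2 of 3 without pESC line 1, where KRT8 was not among the genes called. The share of all genes tested that edgeR's quasi-likelihood test called was 54.5% for pXEN cells against nESCs, 48.3% for pXEN cells against pESCs and 32.2% for pESCs against nESCs. The pXEN lines are shared by 2 of these comparisons, as are the nESC and the pESC lines.

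The balance of KRT8 and KRT18 transcripts lay in 1 range in pXEN cells and pESCs, while in nESCs KRT18 was near the floor. FPKM is per gene length, so it allows levels of different genes to be compared. The FPKM ratio of KRT8 to KRT18 was 2.80, 2.72 and 2.74 in pXEN lines and 2.67 and 2.82 in pESCs. The ranges overlap, although the levels differ by 3.84-fold. In nESCs the ratio was 45.4 (95% counting interval 12.3 to 379) in line 1, where KRT18 had 2 counts, and 34.4 (17.9 to 75.8) in line 2. Of the reads counted on KRT8 and KRT18 together, KRT8 took 98.2% in nESC line 1 (110 of 112 reads, 95% exact Clopper-Pearson interval 93.7 to 99.8%) and 97.7% in nESC line 2 (95.6 to 98.9%). In the pXEN and pESC lines it took between 76.4% and 77.4%. The intervals cover counting error only and not the spread between lines, so these shares are a description. At the pooled ratio of these 5 lines, the KRT8 reads of the nESC lines would go with 33.0 and 113 reads of KRT18, where 2 and 9 were counted.

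KRT7 was not analysed, so KRT8 is the only type II chain in the shares that follow. KRT8 made up 68.1 ± 1.43% (SD, n = 3) of the summed FPKM of the simple keratins in pXEN cells. It made up 69.3 ± 0.718% (SD, n = 2) in pESCs and 97.5 ± 0.474% (SD, n = 2) in nESCs. The sum itself was 11195, 13689 and 10098 FPKM in pXEN lines, 2750 and 3207 FPKM in pESCs, and 5.42 and 19.3 FPKM in nESCs. KRT19 was a minor chain beside KRT18. Its FPKM ratio to KRT18 was 0.262, 0.370 and 0.233 in pXEN lines and 0.211 and 0.217 in pESCs. Line 2 had the highest ratio, and lines 1 and 3 lay nearer to the pESC lines.

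**Figure D2:**
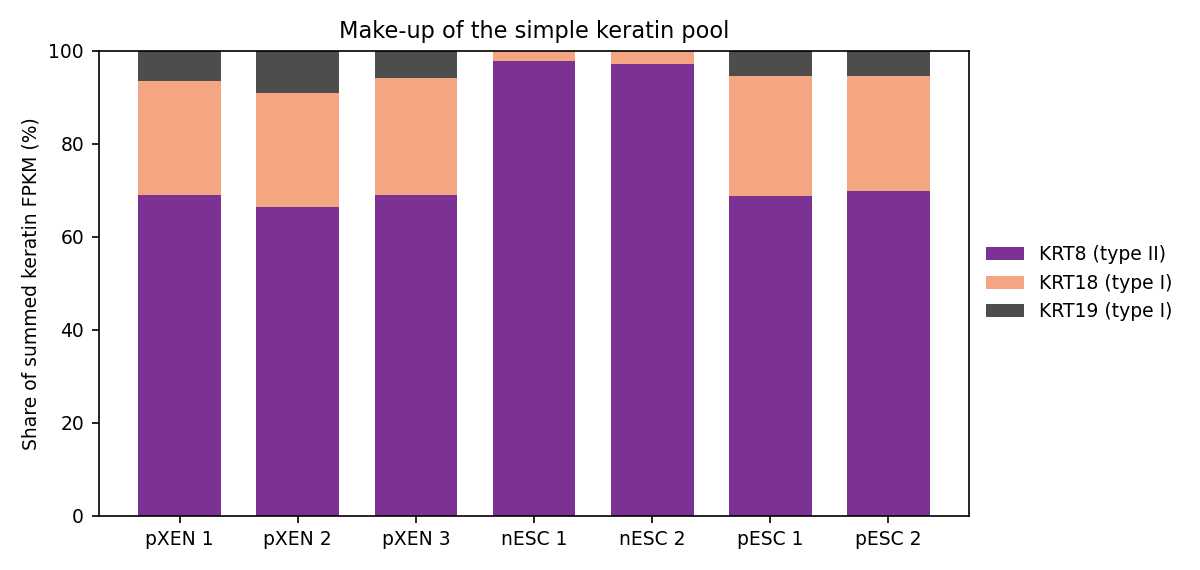
Share of KRT8, KRT18 and KRT19 in the summed FPKM of the simple keratins, in percent, for each line. KRT8 holds between 66.5% and 69.8% of the sum in the pXEN and pESC lines and over 97% in the nESC lines, where KRT19 had no counts.

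The keratin genes lie in 2 clusters. In build Sscrofa10.2, KRT8 (ENSSSCG00000000252) covers chr5:18663339-18671193 on the minus strand and KRT18 (ENSSSCG00000000253) covers chr5:18725320-18729778 on the plus strand. They are 54126 bases apart with 1 row between them, which had 10 counts over the 7 libraries. KRT19 (ENSSSCG00000017448) lies at chr12:21536799-21540282 on the plus strand. KRT20 (ENSSSCG00000017459) at chr12:21864632-21902686 and KRT23 (ENSSSCG00000024067) at chr12:21940976-21959124 lie on the minus strand.

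Most neighbours of the simple keratins had few counts or none. Of 16 rows with a KRT symbol on chromosome 5, 11 had 0 counts in all libraries, and KRT8 and KRT18 sit at one end of the row order. A further 13 rows are described as keratins but have no symbol, and none of these exceeded 79 counts in any library. Of 17 rows with a KRT symbol on chromosome 12, 3 had 0 counts in all libraries. Among 28 other keratin symbols, 3 reached 1 FPKM in any library. KRT10, a type I keratin of the upper epidermis, was at 7.08, 9.10 and 8.62 FPKM in pXEN lines, 8.43 and 8.36 FPKM in nESCs and 11.5 and 9.96 FPKM in pESCs, and was not called in any comparison. KRT32, a type I hair keratin, was counted 14, 9 and 24 times in the pXEN lines and not once in the ESC lines. In pXEN cells it was at least 5.77-fold above nESCs (edgeR, adjusted p = 0.00558) and at least 6.38-fold above pESCs (adjusted p = 0.00596). KRT80, a type II keratin, had 9 counts in pESC line 1 and 0 elsewhere.

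**Figure D3:**
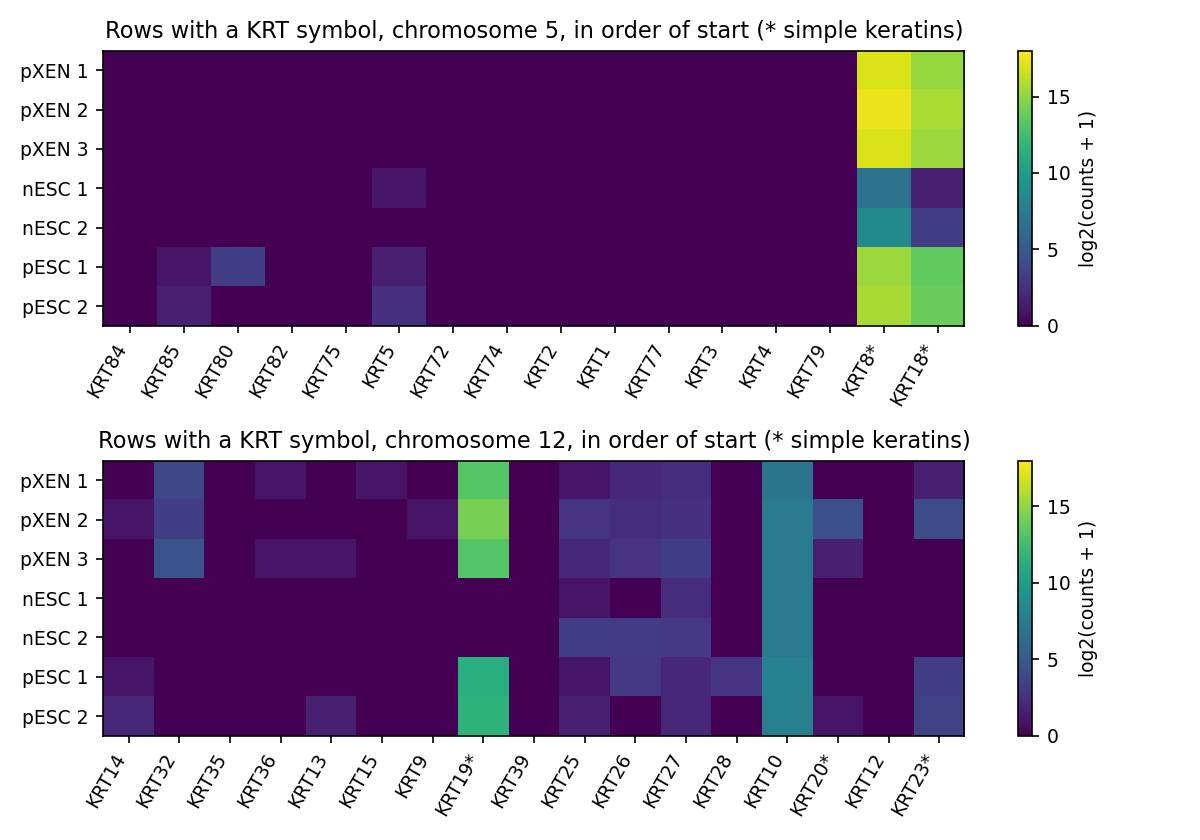
Counts of every row with a KRT symbol on chromosomes 5 and 12, as log2(counts + 1), with lines in rows and genes in columns by order of start; asterisks mark the simple keratins. KRT8, KRT18 and KRT19 stand out among neighbours at or near 0, and KRT10 is at a like level in every line.

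Vimentin (VIM), the type III intermediate filament protein of mesenchymal cells, ran the other way in pXEN cells. Its FPKM was 9.36, 58.6 and 11.0 in pXEN lines 1, 2 and 3, 684 and 771 in nESCs and 837 and 920 in pESCs. It fell in pXEN cells against nESCs (log2 fold change −4.78, SE 0.73, adjusted p = 9.23e-04) and against pESCs (−5.04, SE 0.74, adjusted p = 9.29e-04). Without pXEN line 2 these were −6.17 and −6.43. Between pESCs and nESCs it was not called (0.26, SE 0.74, adjusted p = 0.827). The simple keratins summed to between 233 and 1196 times VIM in pXEN lines, and to 3.29 and 3.49 times VIM in pESCs. In nESCs VIM was 126 and 40.0 times the keratin sum. The pESC lines thus held both keratin and vimentin transcripts at high levels. Whether the same cells held both was not tested.

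**Figure D4:**
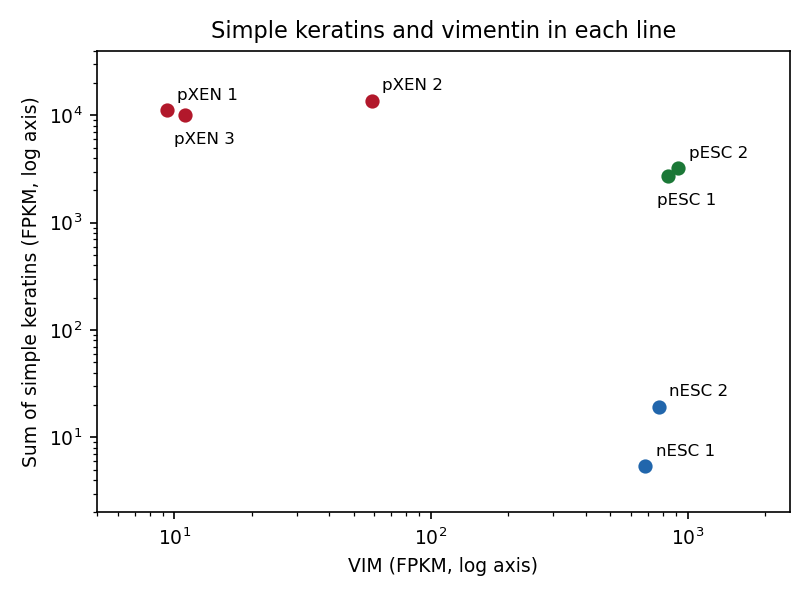
Summed FPKM of the simple keratins against FPKM of VIM for each line, both on log axes. The pXEN lines are high in keratins and low in VIM, the nESC lines the reverse, and the pESC lines are high in both; pXEN 2 has more VIM than pXEN 1 and pXEN 3.

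Of the 14 other intermediate filament genes tested, 3 were higher and 6 lower in pXEN cells than in nESCs, where 28.3% of all genes tested were higher and 26.2% lower. Against pESCs none was higher and 9 were lower, where 23.9% and 24.4% of all genes were. Between pESCs and nESCs, 5 were higher and 5 lower in pESCs, where 19.0% and 13.3% of all genes were. LMNA, which encodes the A-type nuclear lamins, was at 131, 167 and 116 FPKM in pXEN lines, 94.2 and 106 FPKM in pESCs and 11.3 and 17.0 FPKM in nESCs. It rose over nESCs in pXEN cells (3.28, SE 0.24, adjusted p = 1.82e-05) and in pESCs (2.80, SE 0.24, adjusted p = 1.55e-04). Of the B-type lamins, LMNB2 was lower in pXEN cells than in nESCs (−0.93, SE 0.09, adjusted p = 9.38e-05) and pESCs (−0.56, SE 0.09, adjusted p = 0.0017). LMNB1 was lower in pXEN cells against pESCs by a small step (−0.28, SE 0.10, adjusted p = 0.0442), a call lost under 10 of the 16 alternatives.

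NEFL, the light neurofilament chain, was counted 142 and 226 times in nESCs, 77 times in each pESC line and once in all pXEN lines together, and was at least 55.8-fold lower in pXEN cells than in nESCs and at least 21.0-fold lower than in pESCs. NEFM, the medium chain, was counted 177 and 428 times in nESCs, 40 and 60 times in pESCs and 7 times in pXEN cells, all in line 2. INA, a further neuronal filament gene named here after its values were seen, was at 0.971, 1.82 and 0.789 FPKM in pXEN lines, 5.27 and 10.8 FPKM in nESCs and 1.11 and 0.665 FPKM in pESCs. BFSP1, a lens filament protein, was lower in pXEN cells than in nESCs (−4.90, SE 0.34, adjusted p = 1.52e-05). The heavy chain NEFH and peripherin (PRPH), a filament protein of peripheral neurons, were highest in pESCs. PRPH was at 61.8 and 50.0 FPKM there and at most 1.95 FPKM elsewhere. GFAP, the astrocyte filament protein, had at most 19 counts in any library.

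Desmosomes tie keratin filaments to cell junctions, and plakins such as desmoplakin are the linkers. Of the 20 genes listed, 18 had a row and 14 were tested. In pXEN cells 10 were higher and 1 lower than in nESCs. Against pESCs 7 were higher and 4 lower. In pESCs 10 were higher and none lower than in nESCs. Of all genes tested, 28.3%, 23.9% and 19.0% were higher and 26.2%, 24.4% and 13.3% lower, so the 4 of 14 lower against pESCs were near the share of all genes. The median log2 fold change over the 14 genes was 3.27, 0.27 and 2.34 in these comparisons, with genes near 0 at their bound, and that of all genes tested was between −0.01 and 0.01. In FPKM, 7 of the 14 genes were ordered like the keratins, with pXEN lines above pESC lines above nESC lines and no overlap, an order that 12.0% of all genes tested had.

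DSP, desmoplakin, the plakin that binds keratins at the desmosome, was at 122, 106 and 119 FPKM in pXEN lines, 20.2 and 16.6 FPKM in pESCs and 0.0343 and 0.0356 FPKM in nESCs. The nESC values rest on 4 counts in each line. It was higher in pXEN cells than in nESCs (11.65, SE 0.23, adjusted p = 1.82e-07) and in pESCs (2.66, SE 0.13, adjusted p = 4.95e-06). PERP, a desmosomal membrane protein, rose over nESCs in pXEN cells (6.83, SE 0.48, adjusted p = 1.58e-05), as did PPL, periplakin (5.65, SE 0.30, adjusted p = 4.38e-06), and PKP2, a plakophilin of simple epithelia (4.41, SE 0.19, adjusted p = 1.76e-06). PERP had 1 and 6 counts in nESCs, and its change was 6.04 without nESC line 1 and 8.55 without nESC line 2. All 3 were also higher in pXEN cells than in pESCs, by 3.05, 3.21 and 1.86 on the log2 scale.

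JUP, plakoglobin, which joins desmosomal cadherins to desmoplakin, did not show the step of the keratins between pXEN cells and pESCs. It was at 129, 129 and 112 FPKM in pXEN lines, 125 and 122 FPKM in pESCs and 1.53 and 3.58 FPKM in nESCs. The pXEN and pESC lines overlapped (0.00, SE 0.25, adjusted p = 0.998), and both were above nESCs by 5.58 on the log2 scale (adjusted p = 7.05e-06 and 3.02e-05), or 6.32 without nESC line 2. PKP1, a plakophilin of stratified epithelia, had 109 and 78 counts in pESCs and 0 in every other library. DSC3, a desmocollin of the basal epidermis, was at 0.776, 0.840 and 0.732 FPKM in pXEN lines, below the 9.29 and 18.1 FPKM of nESCs (−4.13, SE 0.31, adjusted p = 1.95e-05) and the 8.74 and 8.60 FPKM of pESCs (−3.45, SE 0.31, adjusted p = 7.44e-05). PNN, pinin, which binds keratins and is also a nuclear splicing protein, was between 58.7 and 81.1 FPKM in all lines and was not called.

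**Figure D5:**
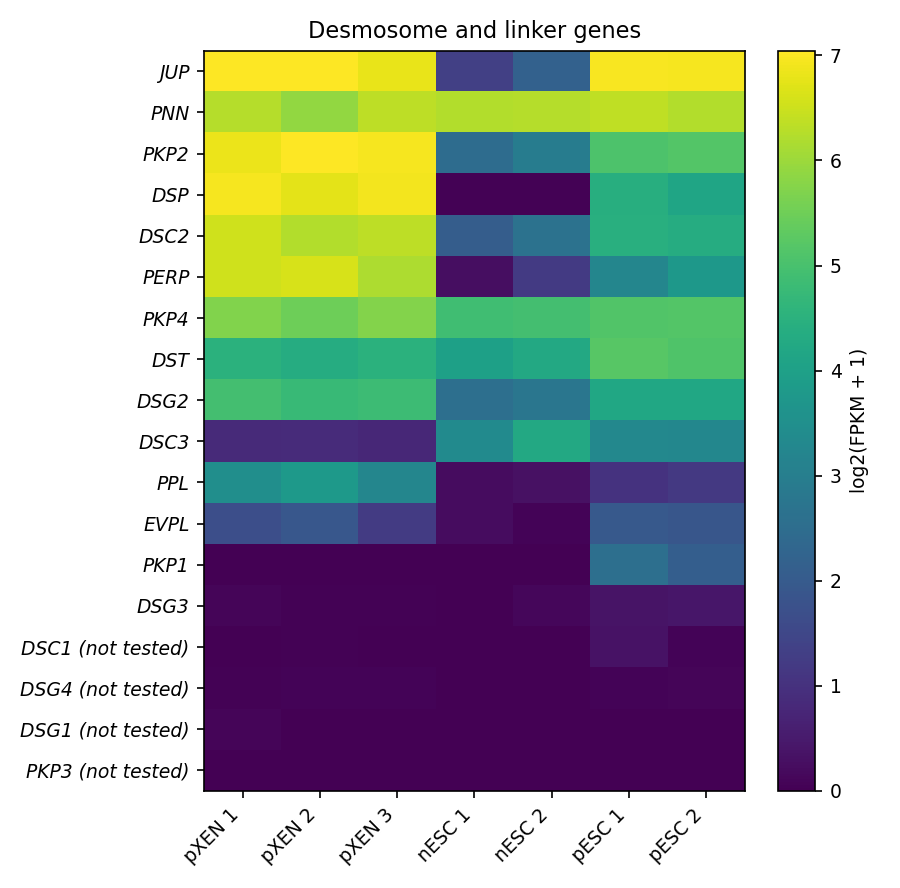
Levels of the desmosome and linker genes as log2(FPKM + 1), with lines in columns and genes ordered by mean FPKM. DSP, PERP, PPL and PKP2 are highest in the pXEN lines, JUP is at one level in pXEN and pESC lines, PKP1 is found in pESC lines, and DSC3 is lowest in the pXEN lines.

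Of 19 listed genes whose products bind, modify or degrade keratins, 14 had a row and were tested. Of these, 5 were higher and none lower in pXEN cells than in nESCs, 5 higher and 2 lower than in pESCs, and 4 higher and 3 lower in pESCs than in nESCs. Of all genes tested, 28.3%, 23.9% and 19.0% were higher and 26.2%, 24.4% and 13.3% lower in these comparisons. SQSTM1 (p62), an autophagy receptor found in keratin aggregates, was at 175, 181 and 182 FPKM in pXEN lines, 44.9 and 34.7 FPKM in nESCs and 71.0 and 87.5 FPKM in pESCs. It was higher in pXEN cells than in nESCs (2.17, SE 0.15, adjusted p = 1.46e-05) and in pESCs (1.19, SE 0.14, adjusted p = 3.48e-04). The 14-3-3 gene YWHAZ rose over nESCs in pXEN cells (0.68, SE 0.13, adjusted p = 0.00237), and YWHAQ was not called in any comparison. SFN (14-3-3σ), which binds phosphorylated KRT18, was counted 14, 44 and 21 times in the pXEN lines and 6 and 2 times in nESCs (2.80, SE 0.67, adjusted p = 0.00814), a call lost without nESC line 2 and a change of 3.72 without nESC line 1.

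CASP6, a caspase that cuts KRT18, was at 58.9, 70.1 and 48.6 FPKM in pXEN lines, 34.7 and 31.8 FPKM in nESCs and 24.4 and 24.6 FPKM in pESCs, higher in pXEN cells than in either (adjusted p = 0.00375 and 5.65e-04). The small heat shock protein HSPB1 was at 5.35, 29.3 and 11.8 FPKM in pXEN lines, 22.2 and 38.1 FPKM in nESCs and 2.13 and 1.83 FPKM in pESCs. It was higher in pXEN cells than in pESCs (2.98, SE 0.73, adjusted p = 0.0107), and 2.12 without pXEN line 2, and this call was lost without either pESC line. Against nESCs it was not called (−0.95, adjusted p = 0.200), and without pXEN line 2 it was lower in pXEN cells (−1.81, adjusted p = 0.00335). TGM2, a crosslinking transglutaminase, was highest in pESCs (2.73 and 3.28 FPKM, at most 0.818 elsewhere). The ubiquitin ligase STUB1 was at a log2 fold change of −0.17 against nESCs and −0.28 against pESCs, neither called by edgeR (adjusted p = 0.193 and 0.0566). Without pXEN line 2 it was called in both (adjusted p = 0.0468 and 0.0106). The kinase CSNK1A1 was lower in pXEN cells than in pESCs (−0.47, SE 0.11, adjusted p = 0.00853), a call lost without pESC line 2.

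Transcription factors known from keratin promoters or from epithelial programmes differed in both directions. Of 28 listed, 23 had a row and 20 were tested. In pXEN cells 9 were higher and 3 lower than in nESCs, and 9 higher and 5 lower than in pESCs. In pESCs 7 were higher and 3 lower than in nESCs. These 10 calls fell to 5 without nESC line 1 or pESC line 2 and to 6 without pESC line 1, and the 5621 calls over all genes fell to 3318, 3122 and 3066. Of all genes tested, 28.3%, 23.9% and 19.0% were higher and 26.2%, 24.4% and 13.3% lower in these comparisons. Of the 20, 1 gene was ordered like the keratins without overlap, fewer than the 12.0% of all genes tested that were, so the order is no result about the list. The gene was OVOL1, a zinc finger factor of epithelia, at 22.3, 21.5 and 15.8 FPKM in pXEN lines, 4.18 and 3.17 FPKM in pESCs and 0.0564 and 0.205 FPKM in nESCs. Its log2 fold change was 7.22 (SE 0.40, adjusted p = 5.22e-06) for pXEN cells over nESCs, 2.44 (SE 0.27, adjusted p = 2.05e-04) over pESCs and 4.77 (SE 0.43, adjusted p = 1.78e-04) for pESCs over nESCs. With 2 and 7 counts in nESCs, the changes over nESCs were 6.56 and 4.12 without nESC line 1 and 8.37 and 5.93 without nESC line 2.

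Other factors were higher in pXEN cells than in both ESC types, pESCs with their high keratin levels included. Counts of the ETS factor EHF were 17, 30 and 27 in the pXEN lines and 0 in every ESC line. KLF5 and ELF3, named here after their values were seen, were at 30.5 to 39.7 FPKM and 8.17 to 8.87 FPKM in pXEN lines and at most 5.62 and 0.504 FPKM in ESC lines.

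TFAP2C, an AP-2 factor of trophectoderm, had 0 counts in every pXEN line, 17 and 18 in nESCs and 1553 and 1519 in pESCs. It was at least 420-fold lower in pXEN cells than in pESCs (adjusted p = 2.73e-06). CDX2, a caudal-type factor of trophectoderm and gut, had 17 and 33 counts in pESCs and 0 elsewhere. SP1, a general factor that binds GC boxes, was higher in pXEN cells than in nESCs (0.59, SE 0.12, adjusted p = 0.00369) and was not called against pESCs. Of the AP-1 genes, FOS and JUN were highest in line 2 among the pXEN lines. FOS was at 22.4, 208 and 42.4 FPKM in pXEN lines, 16.0 and 29.0 FPKM in nESCs and 4.32 and 3.28 FPKM in pESCs. It was higher in pXEN cells than in pESCs by 4.59 on the log2 scale (SE 1.03, adjusted p = 0.0071), by 3.10 without line 2, and the call was lost without either pESC line. JUN was at 9.98, 77.1 and 15.5 FPKM in pXEN lines, 49.5 and 56.0 FPKM in nESCs and 6.79 and 5.67 FPKM in pESCs. Against pESCs it was higher in pXEN cells by 2.47 (SE 0.83, adjusted p = 0.0393), by 1.04 without line 2, and the call was lost when any ESC line was left out. Against nESCs it was not called (−0.62, adjusted p = 0.496), and without line 2 it was lower in pXEN cells (−2.06, adjusted p = 2.69e-05).

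Most genes of simple epithelia and the apical membrane were higher in pXEN cells than in either ESC type. Of 16 tested, 14 were higher and 1 lower in pXEN cells than in nESCs, and 14 were higher and none lower than in pESCs. In pESCs 10 were higher and none lower than in nESCs, and 6 were not called. The shares of all genes tested that were higher were 28.3%, 23.9% and 19.0%, and those lower were 26.2%, 24.4% and 13.3%. Of the 16, 12 had the keratin order without overlap, against 12.0% of all genes tested. EPCAM, an epithelial adhesion molecule, was at 473, 458 and 471 FPKM in pXEN lines, 29.3 and 28.6 FPKM in pESCs and 0.749 and 0.363 FPKM in nESCs. The tight junction gene CLDN4 was at 293, 423 and 256 FPKM in pXEN lines and 60.7 and 73.3 FPKM in pESCs, with 1 count in each nESC line. Its excess over nESCs was at least 2290-fold in pXEN cells and at least 470.1-fold in pESCs (adjusted p = 1e-06 and 8.86e-06).

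ESRP1, an epithelial splicing regulator, was at 43.7, 42.1 and 42.1 FPKM in pXEN lines and 30.9 and 29.6 FPKM in pESCs (0.50, SE 0.12, adjusted p = 0.0108), a call lost without either pESC line, and had 0 and 1 counts in nESCs. VIL1 (villin), a microvillus protein, was at 18.6, 28.6 and 19.5 FPKM in pXEN lines and at most 0.358 FPKM in ESC lines. PRSS8, a membrane serine protease, was at 36.5, 25.5 and 32.8 FPKM and at most 0.172 FPKM. The tight junction gene OCLN was higher in pXEN cells than in nESCs (10.38, SE 0.37, adjusted p = 8.41e-07) and pESCs (3.48, SE 0.22, adjusted p = 1.4e-05). With 4 and 1 counts in nESCs, its change over nESCs was 11.57 without nESC line 1 and 9.76 without nESC line 2. ESPN, an actin bundler, had 0 counts in both nESC lines, 40 and 17 in pESCs and between 81 and 127 in pXEN lines. CLDN6, an embryonic claudin, was at 320, 474 and 254 FPKM in pXEN lines, 184 and 190 FPKM in pESCs and 40.4 and 39.2 FPKM in nESCs. CLDN7 varied among the pXEN lines, at 39.5, 6.53 and 2.30 FPKM, and had 2 and 5 counts in nESCs and 0 and 1 in pESCs. The 1 gene lower in pXEN cells than in nESCs was EZR, ezrin, which links actin to the membrane (−0.35, SE 0.12, adjusted p = 0.0403), a call lost under most alternatives.

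Trophectoderm also makes simple keratins, so its markers were set beside them. Of 12 listed, 11 had a row and 8 were tested. In pXEN cells 2 were higher and 2 lower than in nESCs, and 1 was higher and 6 lower than in pESCs. In pESCs 7 were higher and none lower than in nESCs. Of all genes tested, 28.3% were higher and 26.2% lower in pXEN cells than in nESCs, 23.9% and 24.4% against pESCs, and 19.0% and 13.3% in pESCs against nESCs. The counts against nESCs were thus near the share of all genes. CDX2, DLX3 and TFAP2C were at 0 counts in every pXEN line. ELF5, named here after its values were seen, went the other way, with 10, 3 and 6 counts in pXEN lines and 0 in ESC lines. It did not pass the filter on low counts. DLX3, a homeodomain factor of placenta, had 175 and 173 counts in pESCs and 0 in nESCs. GATA2 had 115 and 81 counts in pESCs, 53 and 54 in nESCs and 0, 3 and 0 in pXEN lines. The list's sum was 608 to 785 FPKM in pXEN lines, 332 and 357 FPKM in pESCs and 85.5 and 84.9 FPKM in nESCs, and most of it was SLC2A3, a glucose transporter that many cell types use, at 758, 581 and 747 FPKM in pXEN lines. TEAD4 was at 25.2, 24.5 and 28.5 FPKM in pXEN lines and 31.3 and 33.5 FPKM in pESCs. The part of such cells in the keratin levels of pESCs was not tested.

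The genes most like each keratin were sought among 7606 genes that had a symbol and averaged 100 counts or more, by the root mean square difference of log2(FPKM + 1) over the 7 libraries after centring each gene. KRT8 was closest to KRT19 (0.51), CLDN4 (0.76) and KRT18 (0.80). KRT18 was closest to KRT19 (0.77), KRT8 (0.80) and CLDN4 (1.35). KRT19 was closest to KRT8 (0.51), CLDN4 (0.63) and KRT18 (0.77). Each of the 3 keratins thus had the other 2 and CLDN4 as its nearest genes by this measure. The added 1 FPKM limits the drop of genes near 0 in nESCs, so the order can depend on it. The Pearson correlation of the same values gave another order, with KRT8 at 0.996 with KRT18 and 0.992 with KRT19. KRT19 was at 0.999 with CLDN4 and 0.992 with KRT8. The 7 libraries form 3 cell types, so these differences describe the levels of the cell types more than 7 separate conditions.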

How the data were processed

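RNA of 7 lines (3 pXEN, 2 nESC, 2 pESC; rRNA-depleted, directional libraries) was analysed. The authors deposited unnormalized read counts per gene and FPKM, which are those counts divided by gene length and a value for each library. That value differs from the total of counts given here, so ratios of FPKM and of count shares differ. Per the labels and the submitters' notes, reads were aligned with HISAT2 2.0.5 to Sscrofa10.2 and counted with featureCounts 1.5.0-p3. Here, counts were tested with edgeR 4.0.16 (TMM, filterByExpr, quasi-likelihood test, Benjamini-Hochberg over 17447 genes, adjusted p below 0.05) in 1 model of all lines with 4 residual degrees of freedom. Totals were 10408164 to 12995720 counts, and the biological coefficient of variation was 0.223. Each line is 1 library, so p-values measure the spread between lines. Log2 fold changes come from this fit. A fold against a group with at most 3 counts in every library is a lower bound at that floor. The fit was tested on simulated counts.

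The members and gene lists were chosen with earlier results of these data known. The study also drew KRT8 and KRT18 among its XEN genes, so they are not independent evidence. It stained cytokeratin protein as a differentiation marker in cells from EB-like spheroids of pXEN cells, without naming the keratins detected. Named were all members, other keratins of at least 1 FPKM, and, of each list, the 4 genes of highest mean FPKM and the 3 called genes of largest fold change per comparison. A few list genes without a symbol in the tables were matched by Ensembl ID. Alternatives were DESeq2 1.42.0, limma 3.58.1 on log2(FPKM + 1) and log2(FPKM + 0.1), other scalings and filters, only the groups compared, a replicate block, and each line left out. Same-numbered lines did not deviate together (correlations −0.01 to 0.04), and the main fit did not pair them. With so few lines per type, these correlations cannot exclude a shared origin. Some genes that this rule names are not reported here.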

Additional observations from a re-analysis of the deposited data

Results flagged for a closer look

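Besides the rows with a KRT symbol, 13 rows were described as keratins without one, and none exceeded 79 counts in any library. They lie outside the comparisons above, and 3 of them were above the floor of 3 counts in every line of at least 1 cell type, all on chromosome 5. ENSSSCG00000000245, at 18200542 to 18205776 and described as a type II keratin 6C, had 58 and 41 counts in nESCs, 7 and 10 in pESCs and 0, 1 and 0 in pXEN lines. It was lower in pXEN cells than in nESCs (edgeR, adjusted p = 1.96e-04) and in pESCs than in nESCs (log2 fold change −2.67, adjusted p = 0.0116), the opposite order to KRT8. ENSSSCG00000022657, at 18107466 to 18114211 and described as a microfibrillar type II keratin, had 36 and 79 counts in pESCs and 0 in every other line (adjusted p = 0.00223 against pXEN cells). ENSSSCG00000000239, described as a cuticular type II keratin, had 10 and 17 counts in pESCs, at most 1 in the other lines, and was not tested. Members of the keratin family share sequence, so reads on such rows are uncertain. No group has 4 lines, so no test for an outlying line was made.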

How the results depend on the processing

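With 2 or 3 lines per type, small differences were beyond this design. The log2 fold changes of KRT8, KRT18 and KRT19 kept their sign under all 16 alternatives. These genes were chosen on these contrasts and their cell types do not overlap, so the kept sign is a description and no test. The range of KRT8 for pXEN cells against pESCs was 1.83 (without pESC replicate 1, no longer called) to 2.08. Genes called for pESCs against nESCs ranged from 3066 to 7560 when a line was left out (5621 with all lines, 3318 without nESC replicate 1, 3122 without pESC replicate 2), and keratin regulators from 5 to 12 (10 with all lines). Counts both fell and rose, and the cause was not tested. On counts instead of FPKM, the KRT8 share was 72.2% in pXEN cells and 73.3% in pESCs, because KRT8 is longer. COL1A2, a fibroblast gene, ranged from −3.99 to 0.86 against nESCs when a line was left out, with 0.30 for all lines and −3.99 without pXEN replicate 2. Upper-quartile scaling shifted the median of all genes by −0.16 for pXEN cells against nESCs, with 4348 genes higher and 5621 lower against 4937 and 4577. The splits were 3770 and 4811 against 4168 and 4261 for pXEN cells against pESCs, and 3049 and 2882 against 3308 and 2313 for pESCs against nESCs. With the replicate number as a block, 8274, 6993 and 5041 genes were called in the 3 comparisons. Over the named genes, 137 values lost and 57 gained a call under an alternative, and 3869 stayed on the same side of the threshold.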
